A study of Mus musculus with 14 samples.

Results

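Mouse pancreatic stellate cells (PSCs) treated with the PIEZO1 agonist Yoda1 were compared with PSCs given its solvent, DMSO, by RNA-Seq. The comparison used 6 of the 14 libraries of the series, chosen by their labels. They came from 3 cell preparations, and each preparation gave 1 DMSO library and 1 library treated with Yoda1 at 25 μM. The PSCs had been cultured on Matrigel with 5% serum for 3 days. The methods give 24 hours of Yoda1, and a supplementary legend gives 72 hours. The methods state that mice of both sexes were used and that they were 8 to 12 weeks old outside the survival studies. The strain and genotype of the mice that gave these PSCs, and their sex in each preparation, were not given in the sources used here, and no untreated cells without DMSO were compared. The other 8 libraries were livers.

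PSCs are the pancreatic cells that store vitamin A in lipid droplets while quiescent. Once activated, they acquire contractile fibers and secrete fibrillar collagens, and in pancreatic cancer they give rise to cancer-associated fibroblasts (CAFs), among which myofibroblastic and inflammatory states have been described. PIEZO1 is an ion channel that opens when the membrane is stretched and lets in calcium, and Yoda1 favors its open state without stretch. The comparison asks which genes PSCs express differently when this channel is opened chemically.

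For each gene, the authors deposited read counts divided by 1 size factor per library, here called the value. Values given in threes are in the order of preparations 1, 2 and 3. Libraries held between 27312894 and 39070539 reads, and in each preparation the Yoda1 library was the deeper one. The 10 genes with the most reads took 8.81% to 11.7% of the DMSO reads and 7.01% to 8.49% of the Yoda1 reads. Preparation 3 stood apart from the others in both treatments. Chi-square per degree of freedom between preparations 1 and 2 was 7.78 with DMSO and 11.0 with Yoda1, and all pairs with preparation 3 were at 37.6 or above. Treatments were therefore compared within preparations, and log2 fold changes are Yoda1 over DMSO by limma with the preparation as a block.

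The labelled cell type was checked against its markers. Of 12 PSC markers, 11 had values, and their summed value was 916629 to 1017050 with DMSO and 453096 to 566272 with Yoda1, carried mostly by Col1a1, Col1a2 and Acta2. Of the 11, 9 were lower with Yoda1, Pdgfra was higher and Des did not pass the test. No value was available here for Gfap, a marker used to identify PSCs. Transcripts of other pancreatic cells were present as well. The 10 ductal and epithelial markers summed to 85508 to 124080 with DMSO and 71176 to 156774 with Yoda1, led by Krt8 and Krt18. The 8 islet markers summed to 15474 to 19037 with DMSO and 13617 to 21135 with Yoda1, led by Ins2. The 8 mesothelial markers summed to 13198 to 22254 with DMSO and 19242 to 22047 with Yoda1. The 9 endothelial markers summed to 2435 to 2875 with DMSO and 2037 to 2531 with Yoda1, with Kdr lower and Esam higher. Their median log2 fold change was 0.65, and 7, 8 and 4 of them had a positive log2 ratio in preparations 1, 2 and 3. Acinar markers summed to 1114 to 6658 with DMSO and 1344 to 13029 with Yoda1. Of 9 lymphocyte markers only Cd79a was listed, with values of at most 4.04. In preparation 3, 9 of 10 ductal, 8 of 8 acinar and 8 of 8 islet markers were higher with Yoda1 than with DMSO, compared with 2, 4 and 4 in preparation 1. In bulk RNA, fewer cells of a type and less RNA per cell cannot be told apart, and the part of these other cells in the results below was not tested.

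Yoda1 changed many genes, mostly by less than 2-fold. Genes passed a filter on low values, and were tested, where 3 or more libraries reached a value of 10. Of 15145 genes tested, 1292 were higher (8.53%) and 1388 were lower (9.16%) with Yoda1 at an adjusted p under 0.05. Of these, 250 were higher by more than 2-fold (1.65% of genes tested) and 199 were lower by more than 2-fold (1.31%). All of the 2680 called genes had the same direction in each of the 3 preparations, which a paired test on 3 preparations nearly requires. The treatments did not overlap for 223 of the 250 genes and for 185 of the 199 genes, and over all genes tested 14.9% lay wholly higher and 15.1% wholly lower with Yoda1. Over all genes tested the median log2 fold change was -0.01, and 90% of genes lay between -0.55 and 0.70. The counts depended on the preparations and on the block. Without preparation 2, 173 genes were higher and 203 lower, and without preparation 3, 2190 were higher and 2506 lower. Without the block, 334 were higher and 385 lower.

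**Figure D1:**
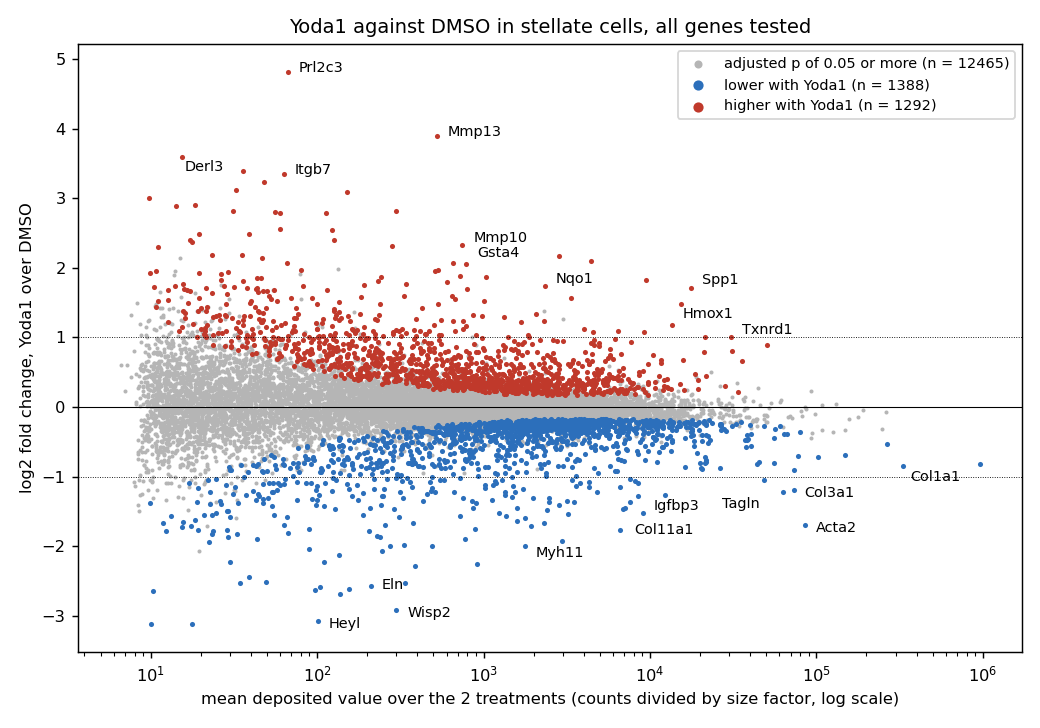
Log2 fold change of Yoda1 over DMSO (vertical axis) against the mean value over both treatments (horizontal axis, log scale) for the 15145 genes tested, with one point per gene, red for higher, blue for lower and grey for an adjusted p of 0.05 or more, and dotted lines at 2-fold. Acta2, Tagln, Col1a1 and Col3a1 are among the lower genes with the highest values, which are not divided by gene length, with Acta2 at -1.70, and Prl2c3 at 4.82 and Mmp13 at 3.89 lead the higher genes.

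Genes were grouped by function into 43 lists. Each count of members called is read against the 8.53% of all genes that were higher and the 9.16% that were lower, and of the 72 list counts above 0, 34 were within 2 times that share. Smooth muscle contractile genes (median log2 fold change -0.77) and collagens (-0.63) had the lowest medians, and NRF2 targets (0.63) and interferon-stimulated genes (0.56) had the highest medians of the lists with at least 7 tested members. By limma, 0 members of the contractile list were higher, and 0 members of the NRF2, interferon and lysosome lists were lower, also at an unadjusted p under 0.05 and by edgeR or DESeq2. Over the 14 lists and directions with 0 calls, such as lower ATF4 genes or higher cell cycle genes, 14 members had an unadjusted p under 0.05 and edgeR and DESeq2 called 1 each. The 83 cytosolic ribosomal protein genes stayed between -0.19 and 0.15, with 1 lower and 0 higher. Several other lists, such as integrins, chemokines and growth factors, held both members that were higher and members that were lower by more than 2-fold.

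**Figure D2:**
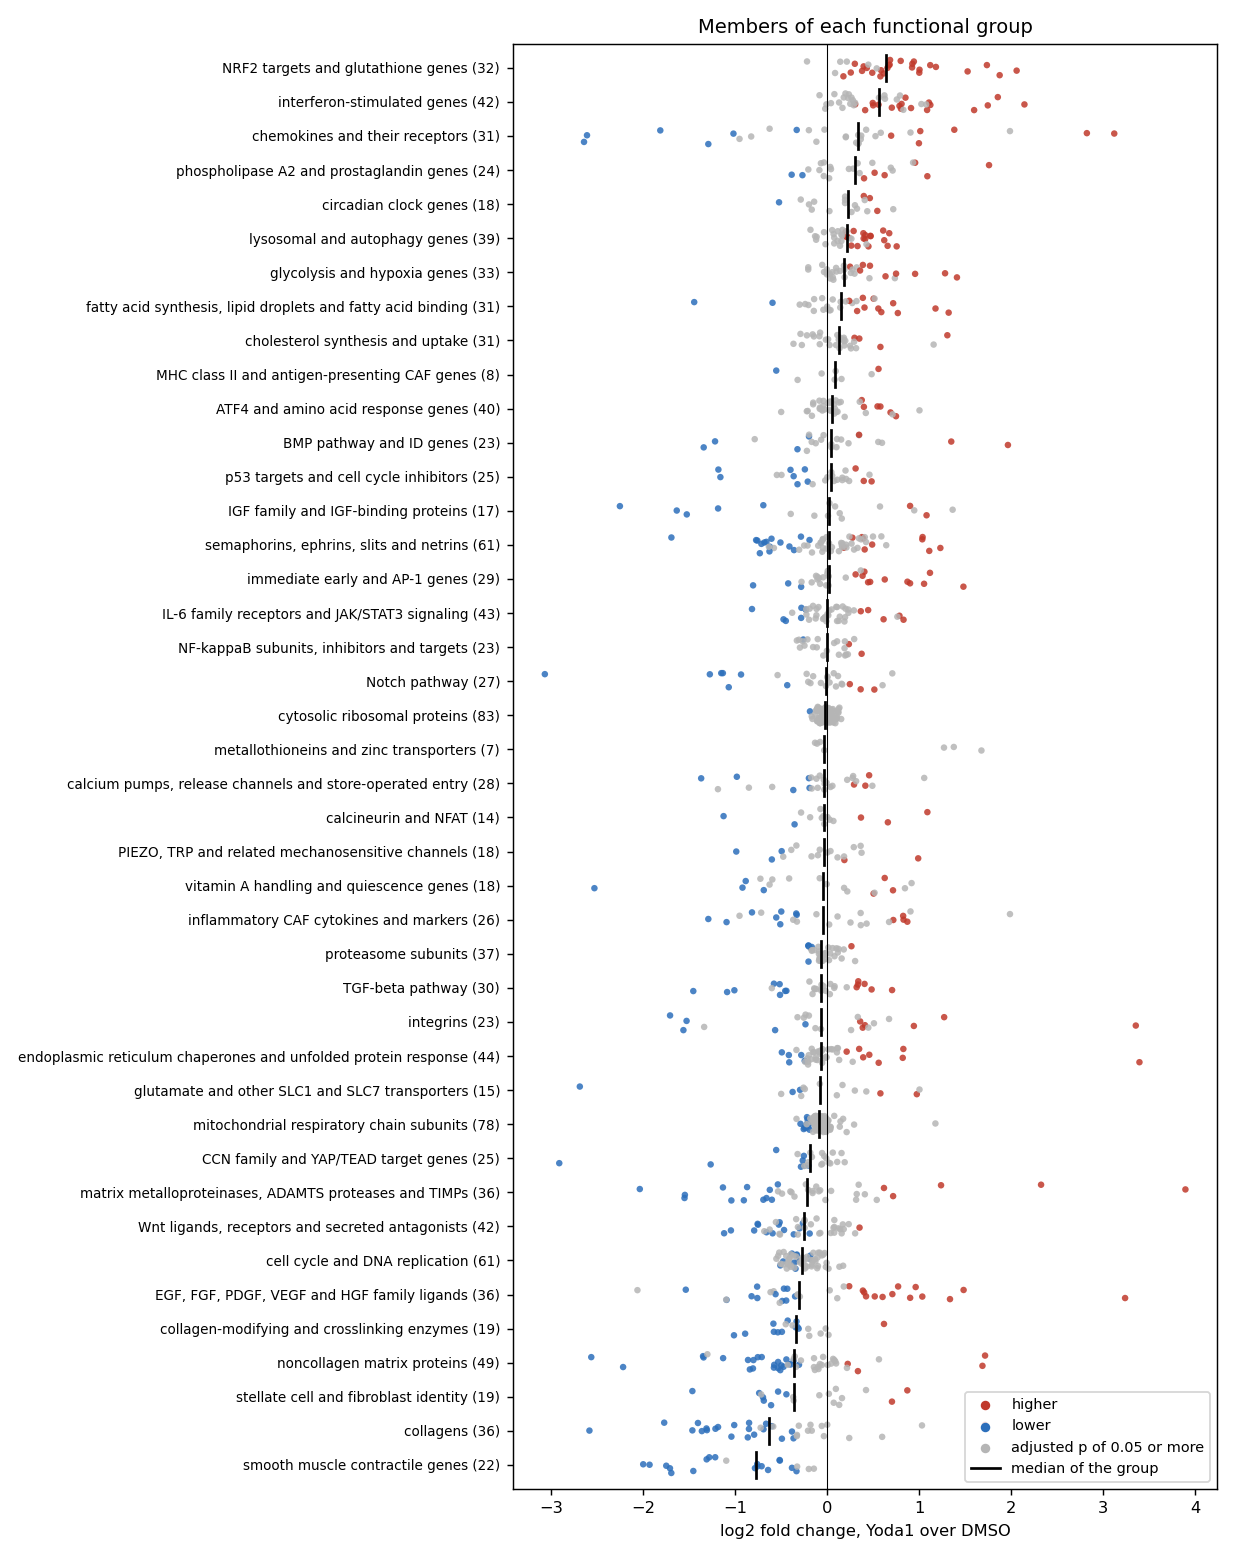
Log2 fold change of Yoda1 over DMSO for each tested member of the functional lists with at least 7 tested members (their number in parentheses), sorted by the list median (black bar), with one point per gene, red for higher, blue for lower and grey for an adjusted p of 0.05 or more. Contractile genes and collagens are at the bottom with medians of -0.77 and -0.63, and NRF2 targets at the top with a median of 0.63.

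The channel that Yoda1 acts on was expressed in every library. Piezo1 (ENSMUSG00000014444, chromosome 8 from 122481698 to 122551329 of GRCm38) had values of 16698, 16580.2 and 14295 with DMSO and 16018, 15077 and 13819 with Yoda1. Its difference did not pass the test (log2 fold change of -0.08 ± 0.05 (SE), adjusted p = 0.27). Trpv4, another calcium-permeable channel studied in the series, had values of 343, 301 and 376 with DMSO and 365, 402 and 576 with Yoda1 and did not pass it either (log2 fold change of 0.37 ± 0.11 (SE), adjusted p = 0.077). Of 18 tested PIEZO, TRP and related mechanosensitive channels, 2 were higher (11.1%, against 8.53% of all genes tested) and 3 were lower (16.7%, against 9.16%). Kcnn4, a calcium-activated potassium channel, was higher (0.99 ± 0.09, adjusted p = 0.0041). Trpv2 (-0.99 ± 0.08), Piezo2 (-0.60 ± 0.09) and Tmem63a (-0.50 ± 0.07), which encode cation channels, were lower. Without preparation 3, 5 channel genes were higher and 4 lower, and without preparation 2, 1 and 1.

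Contractile genes formed the most uniform of the lower groups. Of 22 tested, 18 were lower and 0 higher with Yoda1, and 9 were lower by more than 2-fold. Acta2 (ENSMUSG00000035783, chromosome 19 from 34241090 to 34255336), which encodes α-smooth muscle actin, had values of 133472, 120679.5 and 132329 with DMSO and 51408, 44748 and 27293 with Yoda1. All 3 Yoda1 libraries were below all 3 DMSO libraries (log2 fold change of -1.70 ± 0.18 (SE), adjusted p = 0.0053). Myh11, the smooth muscle myosin heavy chain, had values of 3649.8, 2288 and 2420.5 with DMSO and 1178, 733 and 364 with Yoda1 (log2 fold change of -2.0005 ± 0.22 (SE), adjusted p = 0.0057). Actg2, the enteric smooth muscle actin, had values of 5064, 3849 and 5129 with DMSO and 1657, 1083 and 1001 with Yoda1 (log2 fold change of -1.93 ± 0.14 (SE), adjusted p = 0.0024). Both genes showed no overlap between treatments, and the fall was largest in preparation 3 for Acta2, Myh11 and Actg2, where the log2 ratio of Yoda1 to DMSO was -2.28, -2.73 and -2.36. Also lower were the actin-binding genes Tagln (-1.22 ± 0.08), Cnn1 (-1.46 ± 0.14) and Synpo2 (-1.31 ± 0.09), the myosin light chain gene Myl9 (-1.28 ± 0.13) and the LIM-domain gene Csrp1 (-0.79 ± 0.06). Flna, Tpm4, Myocd and Cald1 did not pass the test. All 22 genes had a ratio below 1 in each preparation, and 17, 14 and 21 of them passed the test without preparation 1, 2 and 3. Without the variance trend, 6 passed. Pericyte and smooth muscle markers, which include Myh11, summed to 8979 to 12785 with DMSO and 4611 to 6095 with Yoda1. Of 6 tested, Mcam and Myh11 were lower and 4 did not pass, and the part of such cells in the fall was not tested. Desmin (Des), an intermediate filament gene of PSCs and muscle, had values of 4639, 3172 and 2729 with DMSO and 4651, 3336 and 2995 with Yoda1 and did not pass the test (log2 fold change of 0.07 ± 0.05 (SE), adjusted p = 0.35).

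Many contractile genes carry the CArG box, the DNA motif bound by serum response factor (SRF). Promoter windows from RefSeq on GRCm38.p6, from 250 bases before to 50 bases after each start, were searched on both strands. A CArG box was in 1.63% of all 32851 windows and in 6 of the 18 windows that matched the lower contractile genes, which belong to 5 of 15 matched genes. Srf itself fell slightly (log2 fold change of -0.33 ± 0.04 (SE), adjusted p = 0.0083). A pair of the lower genes and Srf are shown because they place the motif within 250 bases before a start. They are written 5′ to 3′ along the gene's own strand, with each CArG box in capitals.
Myl9 (chr2:156775273-156775342, plus strand): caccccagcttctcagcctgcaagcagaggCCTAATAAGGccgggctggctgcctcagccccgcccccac
Cnn2 (chr10:79988514-79988583, plus strand): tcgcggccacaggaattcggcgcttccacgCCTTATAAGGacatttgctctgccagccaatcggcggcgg
Srf (chr17:46556185-46556274, minus strand): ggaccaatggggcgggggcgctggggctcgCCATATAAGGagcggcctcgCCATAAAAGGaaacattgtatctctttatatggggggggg
The box began 161 bases before the start in Myl9 and 56 bases before it in Cnn2. Srf had 2 boxes, at 82 and 62 bases before its start. Myl9 had values of 11813, 10766 and 13180.4 with DMSO and 5567, 5152 and 4056 with Yoda1. Cnn2, a calponin, fell less (log2 fold change of -0.52 ± 0.06 (SE), adjusted p = 0.0072). A match is a description of the sequence, and binding was not measured.

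**Figure D3:**
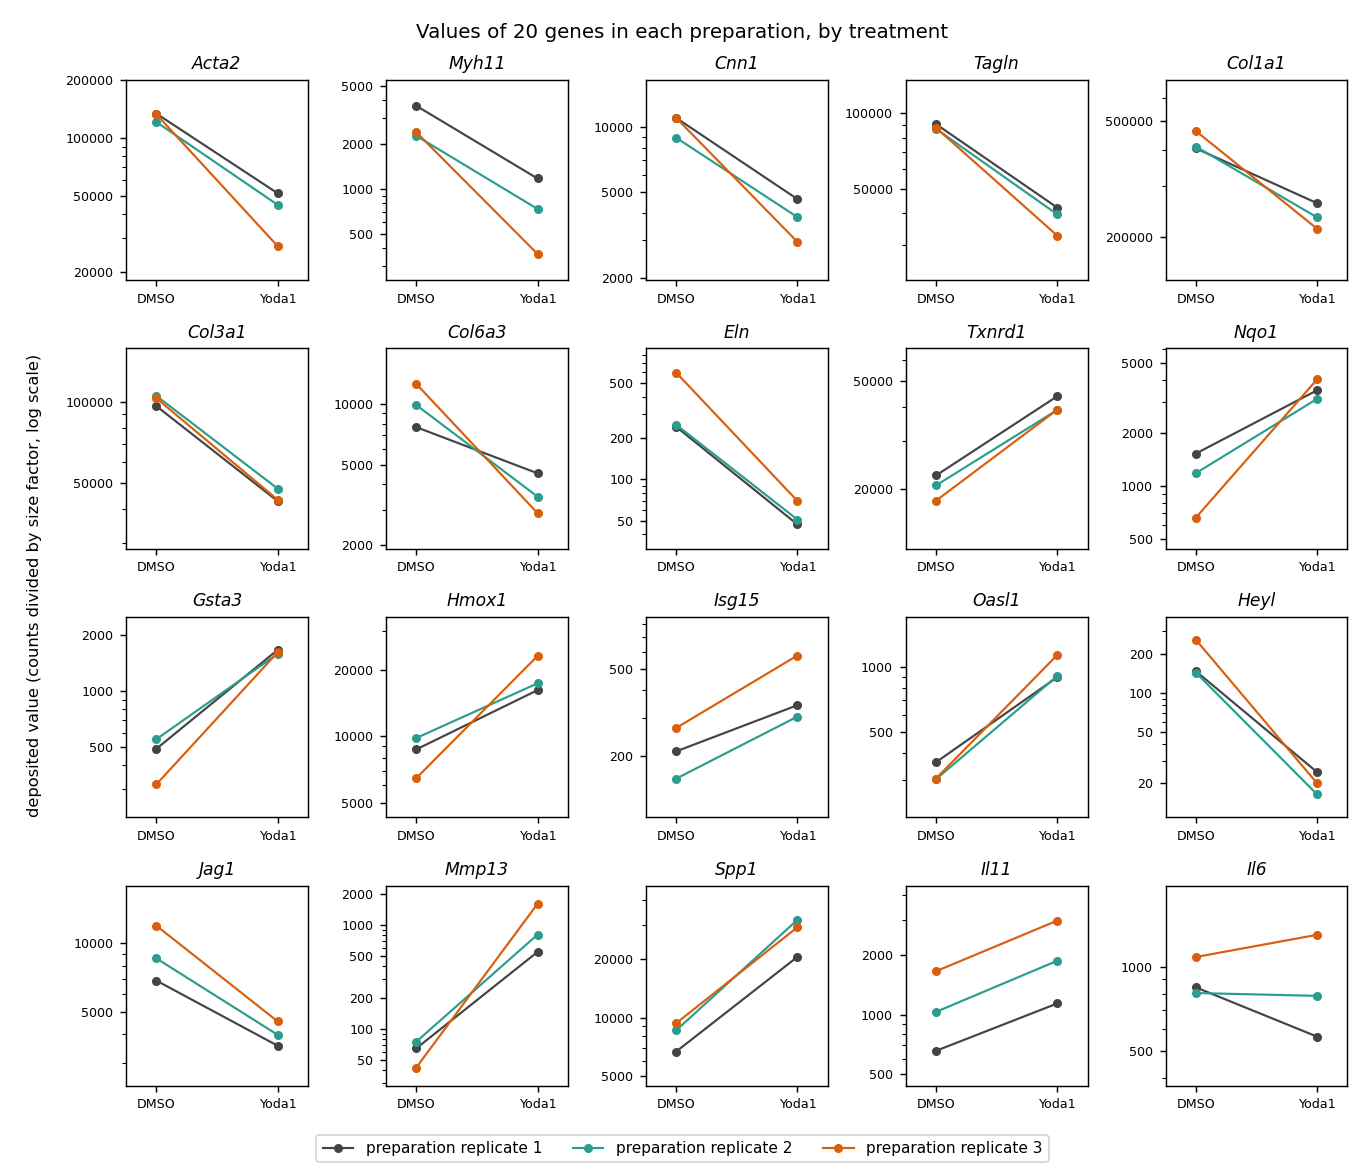
Values of 20 genes (vertical axes, log scale, each with its own range) with DMSO and with Yoda1, with one line for each of the 3 preparations. Lines fall in every preparation for the contractile and matrix genes Acta2, Myh11, Cnn1, Tagln, Col1a1, Col3a1, Col6a3 and Eln and for the Notch genes Heyl and Jag1, rise in every preparation for the others, and cross for Il6, whose log2 ratios were -0.59, -0.03 and 0.26.

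Collagen genes were lower with Yoda1 across several families. Of 36 tested, 21 were lower and 1 was higher. Col3a1 (ENSMUSG00000026043, chromosome 1 from 45311538 to 45349706), a fibrillar collagen, had values of 96649.7, 105475 and 103362 with DMSO and 42962, 47792 and 43457 with Yoda1 (log2 fold change of -1.19 ± 0.06 (SE), adjusted p = 0.0014). The preparations lay close together within each treatment. Col1a1 and Col1a2, the chains of type I collagen, fell less. Col1a1 had values of 404158, 409633 and 463416 with DMSO and 261784, 234059 and 213908 with Yoda1 (log2 fold change of -0.85 ± 0.13 (SE), adjusted p = 0.011), and Col1a2 had a log2 fold change of -0.69 ± 0.15 (SE), adjusted p = 0.029. The fibrillar collagen Col11a1 (-1.77 ± 0.09), the microfibrillar chains Col6a1 (-1.41 ± 0.10) and Col6a3 (-1.47 ± 0.24), and the short-chain collagens Col8a1 (-1.36 ± 0.05) and Col8a2 (-2.59 ± 0.47) were lower by more than 2-fold. Col26a1 was the single collagen called higher, with values of 6.23, 7.85 and 14.1 with DMSO and 18.8, 42.8 and 38.5 with Yoda1 (log2 fold change of 1.71 ± 0.30 (SE), adjusted p = 0.018). Its log2 fold change was 1.13 with a pseudocount of 10 in place of 1, and it was not called without preparation 2, without the block or without the variance trend, and was too low to be tested without preparation 3. Of 19 enzymes that modify and crosslink collagen, 11 were lower (57.9%, against 9.16% of all genes tested) and 1 higher (5.26%, against 8.53%). They included the prolyl hydroxylase subunit P4ha3 (-1.01 ± 0.07), the lysyl oxidases Loxl2 (-0.89 ± 0.13) and Loxl3 (-0.49 ± 0.07) and the procollagen proteinase enhancer Pcolce (-0.34 ± 0.04). Without preparation 2, 8 collagens and 1 enzyme were lower, although the median of the collagens was then -0.70.

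Noncollagen matrix genes also fell more often than they rose. Of 49 tested, 23 were lower (46.9%, against 9.16% of all genes tested) and 4 higher (8.16%, against 8.53%). Eln, the elastin gene, had values of 242, 250.1 and 599.6 with DMSO and 47.03, 51.02 and 69.8 with Yoda1 (log2 fold change of -2.56 ± 0.19 (SE), adjusted p = 0.0025). Aspn, a small leucine-rich proteoglycan gene, had values of 92.3, 192 and 267 with DMSO and 22.6, 40.3 and 48.1 with Yoda1 (log2 fold change of -2.22 ± 0.16 (SE), adjusted p = 0.0024). Postn, a matricellular protein of fibrotic tissue, had values of 13724, 18224 and 31092 with DMSO and 7985, 10406 and 15602 with Yoda1 (log2 fold change of -0.86 ± 0.06 (SE), adjusted p = 0.0022). Eln and Aspn did not overlap between treatments, which the rule for the largest changes required. Postn fell in each preparation from different levels and overlapped. Dcn (decorin) fell by less (-0.44 ± 0.04, adjusted p = 0.0045). Spp1 (osteopontin), a secreted phosphoprotein, was an exception, with values of 6681, 8591 and 9345 with DMSO and 20498, 31794 and 29113 with Yoda1 (log2 fold change of 1.71 ± 0.07 (SE), adjusted p = 0.0012). Thbs1, a thrombospondin gene, did not pass the test (log2 fold change of -0.05 ± 0.11 (SE), adjusted p = 0.79). Without preparation 2, 6 of the 49 were lower and 1 was higher.

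Secreted proteases split by gene. Of 36 tested metalloproteinases, ADAMTS proteases and TIMPs, 5 were higher (13.9%, against 8.53% of all genes tested) and 12 were lower (33.3%, against 9.16%). Mmp13 (ENSMUSG00000050578, chromosome 9 from 7272514 to 7283331), a collagenase, had values of 64.8, 75.2 and 42.4 with DMSO and 550.3, 807 and 1597 with Yoda1 (log2 fold change of 3.89 ± 0.40 (SE), adjusted p = 0.0048). The rise was smallest in preparation 1 and largest in preparation 3, with log2 ratios of 3.07, 3.41 and 5.20. The stromelysins rose too. Mmp10 had values of 307, 202 and 201 with DMSO and 832, 959 and 1975 with Yoda1 (log2 fold change of 2.32 ± 0.32 (SE), adjusted p = 0.0095), and Mmp3 had values of 446, 453 and 406 with DMSO and 864, 1482 and 842 with Yoda1 (log2 fold change of 1.24 ± 0.15 (SE), adjusted p = 0.0073). Mmp3, Mmp10 and Mmp13 are neighbors in 1 cluster of metalloproteinase genes on chromosome 9. Mmp14, the membrane-bound collagenase, fell (-0.87 ± 0.08, adjusted p = 0.0034), as did Adamts16 (-2.04 ± 0.21, adjusted p = 0.0047). Timp3, an inhibitor of these proteases, had values of 95415, 100972 and 88812 with DMSO and 54031, 55793 and 43067 with Yoda1 (log2 fold change of -0.91 ± 0.07 (SE), adjusted p = 0.0028). Timp1 did not pass the test (log2 fold change of -0.12 ± 0.06 (SE), adjusted p = 0.24). Without preparation 2, 3 proteases were higher and 4 lower.

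Integrins, the receptors that bind cells to matrix, changed in both directions, with 6 higher and 5 lower of 23 tested. Itgb7 (ENSMUSG00000001281, chromosome 15 from 102215995 to 102231944), a β subunit best known from lymphocytes, had values of 9.98, 8.97 and 12.1 with DMSO and 101, 102 and 145 with Yoda1 (log2 fold change of 3.35 ± 0.19 (SE), adjusted p = 0.0017). With a pseudocount of 10 in place of 1, the log2 fold change of Itgb7 was 2.61. Itga2, a collagen-binding subunit, was higher (0.94 ± 0.06, adjusted p = 0.0018). Itga1, another collagen-binding subunit, had values of 1152, 1001 and 1034 with DMSO and 504, 372 and 245 with Yoda1 and was lower (log2 fold change of -1.56 ± 0.17 (SE), adjusted p = 0.0053). Itga6, a laminin-binding subunit, was higher by less (0.39 ± 0.04). Without preparation 2, 3 integrins were higher and 1 lower.

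Genes of the CCN family and other targets of the coactivator YAP and its TEAD partners, which respond to cell tension, were lower or did not pass the test. Of 25 tested, 8 were lower and 0 higher. Wisp2 had values of 643, 377 and 566 with DMSO and 91.2, 53.5 and 63.3 with Yoda1 (log2 fold change of -2.91 ± 0.12 (SE), adjusted p = 0.0012), and Wisp1 had values of 15655, 17705 and 18699.7 with DMSO and 8252, 7341 and 6132 with Yoda1 (log2 fold change of -1.27 ± 0.12 (SE), adjusted p = 0.0044). Both belong to the CCN family of matricellular proteins. Ctgf and Cyr61, the CCN genes most often used as YAP targets, did not pass the test. Ctgf had values of 77012, 69814 and 102253 with DMSO and 71957, 74218 and 91495 with Yoda1 (log2 fold change of -0.06 ± 0.08 (SE), adjusted p = 0.64), and Cyr61 had values of 35352, 32049.9 and 35095 with DMSO and 25947, 27337 and 33327 with Yoda1 (log2 fold change of -0.25 ± 0.08 (SE), adjusted p = 0.085). The kinase gene Nuak2 (-0.56 ± 0.05) and Crim1 (-0.29 ± 0.05) were lower. Without preparation 3, 14 members were lower and 3 higher, and without preparation 2, 3 were lower.

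In the Notch pathway, ligands on 1 cell activate receptors on its neighbor. Of 27 tested genes, 7 were lower (25.9%, against 9.16% of all genes tested) and 3 were higher (11.1%, against 8.53%). Heyl (ENSMUSG00000032744, chromosome 4 from 123233556 to 123249875), a transcriptional target of Notch, had values of 147, 144 and 257 with DMSO and 24.5, 16.5 and 20.05 with Yoda1 (log2 fold change of -3.07 ± 0.24 (SE), adjusted p = 0.0027). This was the lowest log2 fold change among the decreases that met the rule for the largest changes. The related targets Hey1 (-1.13 ± 0.16, adjusted p = 0.010) and Hey2 (-1.28 ± 0.22, adjusted p = 0.017) were also lower. Jag1, a Notch ligand, had values of 6869, 8598 and 11959 with DMSO and 3559, 3972 and 4549 with Yoda1 (log2 fold change of -1.15 ± 0.09 (SE), adjusted p = 0.0025). Lfng, a glycosyltransferase that modifies Notch receptors, fell as well (-1.07 ± 0.11). Notch1, Notch2, Notch3 and the target Hes1 did not pass the test. Without preparation 2, 3 members were lower and 0 higher, and DESeq2 called 1 higher in place of 3.

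Among TGF-β pathway genes, 8 of 30 tested were lower and 6 were higher. Tgfb2 had values of 2141, 2126 and 2695 with DMSO and 749.7, 665 and 1188 with Yoda1 (log2 fold change of -1.46 ± 0.10 (SE), adjusted p = 0.0022), and Tgfb3 had values of 4705, 5187 and 5674 with DMSO and 2564, 2471 and 2269.9 with Yoda1 (log2 fold change of -1.09 ± 0.09 (SE), adjusted p = 0.0028). Both ligands thus fell by more than 2-fold, whereas Tgfb1 did not pass the test (log2 fold change of -0.16 ± 0.07 (SE), adjusted p = 0.18). Ltbp2 (-0.58 ± 0.07) and Fstl3 (-0.51 ± 0.05), which encode a latent TGF-β binding protein family member and an activin-binding protein, were lower. In the BMP pathway, 3 of 23 were higher (13.0%, against 8.53% of all genes tested) and 4 lower (17.4%, against 9.16%). Grem1, a secreted BMP antagonist, had values of 192, 211 and 248 with DMSO and 801, 932 and 807 with Yoda1 (log2 fold change of 1.96 ± 0.11 (SE), adjusted p = 0.0014), and its treatments did not overlap. The ligand Bmp4 had values of 759, 743 and 362 with DMSO and 269, 313 and 148 with Yoda1 (log2 fold change of -1.34 ± 0.09 (SE), adjusted p = 0.0021). The ligand Gdf6 was lower (-1.22 ± 0.08) and Bmp7 was higher (1.35 ± 0.23). Without preparation 2, 3 TGF-β genes were lower and 0 higher, and 1 BMP gene was higher and 2 lower. Of 42 tested Wnt ligands, receptors and antagonists, 14 were lower and 1 was higher. The ligands Wnt5a (-0.59 ± 0.05) and Wnt11 (-0.75 ± 0.07) and the antagonists Sfrp1 (-0.79 ± 0.09) and Apcdd1 (-1.12 ± 0.13) were among the lower genes, and 4 were lower without preparation 2.

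Growth factor genes changed in both directions, with 14 higher and 11 lower of 36 tested. Fgf7, an epithelial growth factor made by fibroblasts, had values of 132, 146 and 103 with DMSO and 380.0, 356 and 325 with Yoda1 (log2 fold change of 1.48 ± 0.11 (SE), adjusted p = 0.0025). Fgfbp1, which releases FGFs bound to matrix, had values of 6.23, 6.73 and 6.06 with DMSO and 36.7, 46.1 and 185 with Yoda1 (log2 fold change of 3.24 ± 0.49 (SE)), so that preparation 3 rose most. It passed the filter on low values only through its Yoda1 libraries, and its log2 fold change was 2.29 with a pseudocount of 10 in place of 1. Fgf10 (1.33 ± 0.31), Hgf (0.60 ± 0.15) and Vegfa (0.39 ± 0.08) were also higher. Gas6, a ligand of TAM receptors, had values of 4965, 5200.3 and 4191 with DMSO and 1456, 1581 and 1918 with Yoda1 (log2 fold change of -1.54 ± 0.13 (SE), adjusted p = 0.0031). Hbegf (-0.76 ± 0.06) and Pdgfd (-0.76 ± 0.07), ligands of EGF and PDGF receptors, were lower, while the receptor gene Pdgfra was higher, with values of 3874, 3819 and 2803 with DMSO and 7428, 6879.8 and 4956 with Yoda1 (log2 fold change of 0.87 ± 0.05 (SE), adjusted p = 0.0014). Of 17 IGF family genes, 5 were lower (29.4%, against 9.16% of all genes tested) and 2 higher (11.8%, against 8.53%). Igf1 had values of 2696, 2629 and 1850.2 with DMSO and 958, 728 and 625 with Yoda1 (log2 fold change of -1.64 ± 0.08 (SE), adjusted p = 0.0014). Igfbp2, a binding protein for IGFs, had values of 2599.9, 1174 and 696 with DMSO and 635, 279.8 and 109 with Yoda1 (log2 fold change of -2.25 ± 0.14 (SE), adjusted p = 0.0018), with preparation 1 the highest in both treatments. Igfbp6 was higher (0.90 ± 0.05). Without preparation 2, 2 growth factors were higher and 3 lower, and 1 IGF gene was higher and 4 lower.

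NRF2 target genes rose with Yoda1. NRF2 is a transcription factor that is degraded in resting cells and drives detoxification and glutathione genes under oxidative or electrophilic stress. Of 32 tested genes of this group, 26 were higher and 0 lower, and 7 were higher by more than 2-fold. Txnrd1 (ENSMUSG00000020250, chromosome 10 from 82833951 to 82897712), thioredoxin reductase, had values of 22498, 20679 and 18173 with DMSO and 43975, 39176 and 39249.9 with Yoda1 (log2 fold change of 0.9998 ± 0.06 (SE), adjusted p = 0.0018). Gsta3, a glutathione transferase, had values of 491, 553 and 317 with DMSO and 1664, 1584 and 1615 with Yoda1 (log2 fold change of 1.87 ± 0.15 (SE), adjusted p = 0.0030). Nqo1, a quinone reductase, had values of 1524, 1179 and 659 with DMSO and 3488, 3117 and 4023 with Yoda1 (log2 fold change of 1.73 ± 0.26 (SE), adjusted p = 0.012). For each of these genes the lowest Yoda1 library exceeded the highest DMSO library. Hmox1, which degrades heme, had values of 8719, 9816 and 6463 with DMSO and 16144, 17329 and 23029 with Yoda1 (log2 fold change of 1.18 ± 0.20 (SE), adjusted p = 0.015). Gclm, the modifier subunit of the enzyme that starts glutathione synthesis (0.92 ± 0.08), the peroxiredoxin Prdx1 (1.002 ± 0.19), the pentose phosphate enzyme G6pdx (0.68 ± 0.05) and the ferritin chains Fth1 (0.80 ± 0.09) and Ftl1 (0.65 ± 0.12) were higher too. Slc7a11, the cystine importer, rose by less (0.58 ± 0.14, adjusted p = 0.045). The median log2 ratio of the 32 genes was 0.58, 0.49 and 0.84 in preparations 1, 2 and 3, against -0.01, 0.00 and -0.01 over all genes. Without preparation 2, 11 were higher, and 26 were higher without preparation 1 and without preparation 3, with 1 lower without preparation 3. The count was 16 without the block and 6 without the variance trend. Glutathione transferase genes have close relatives within their families, so some reads may be divided uncertainly between relatives, which was not tested.

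NRF2 binds the antioxidant response element, searched here as TGACNNNGC on both strands of the same RefSeq windows. The motif was in 12.4% of all windows and in 8 of the 30 windows of the 21 matched genes that were higher (26.7%). Shown are 4 of these genes, because the element lies upstream of a start whose gene rose in every preparation. The element is in capitals, and a copy on the other strand reads as its reverse complement.
Txnrd1 (chr10:82859084-82859152, plus strand): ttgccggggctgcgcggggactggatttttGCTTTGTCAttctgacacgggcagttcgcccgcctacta
Gclm (chr3:122245393-122245461, plus strand): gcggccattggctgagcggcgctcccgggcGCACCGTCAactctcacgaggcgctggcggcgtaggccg
Prdx1 (chr4:116685436-116685504, plus strand): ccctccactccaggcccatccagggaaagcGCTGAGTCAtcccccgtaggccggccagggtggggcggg
Gsta3 (chr1:21240434-21240502, plus strand): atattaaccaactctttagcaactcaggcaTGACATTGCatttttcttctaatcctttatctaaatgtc
It began 92 bases before the start in Txnrd1, 134 in Gclm, 133 in Prdx1 and 121 in Gsta3. Prdx1 had values of 13804, 14931 and 13023 with DMSO and 21438, 25142 and 40046 with Yoda1, and Gclm had values of 3306, 3297 and 2557 with DMSO and 6098, 5549.9 and 5633 with Yoda1. Preparation 3 was the highest Yoda1 library for Prdx1 but not for Gclm.

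The listed interferon-stimulated genes, which encode antiviral proteins, were higher or did not pass the test. Of 42 tested, 18 were higher and 0 lower, and 39 had a positive log2 fold change. Oasl1, an oligoadenylate synthetase-like gene, had values of 362, 302 and 304 with DMSO and 896, 907 and 1135 with Yoda1 (log2 fold change of 1.596 ± 0.12 (SE), adjusted p = 0.0025). Its relative Oasl2 had values of 591, 539.5 and 573 with DMSO and 878, 1077 and 1038 with Yoda1 (log2 fold change of 0.81 ± 0.09 (SE), adjusted p = 0.0064). Isg15, a ubiquitin-like modifier, had values of 211, 158 and 269.5 with DMSO and 342, 304 and 577 with Yoda1 (log2 fold change of 0.91 ± 0.11 (SE), adjusted p = 0.0065). Stat2 (0.78 ± 0.09) and Irf7 (1.08 ± 0.17), transcription factors of the pathway, and Usp18 (1.12 ± 0.22), which removes Isg15, were also higher. Oas genes lie in a cluster of close relatives, so reads may be divided between them uncertainly. Preparation 1 had the smallest median log2 ratio, 0.18 against 0.63 and 0.65 in preparations 2 and 3. The count was 25 without preparation 1 and 2 without preparation 2. Cxcl10, a chemokine induced by interferon-γ, was not in this list, so the count of 0 lower leaves it out. It moved in the opposite direction, with values of 349, 187 and 255 with DMSO and 38.6, 20.6 and 85.8 with Yoda1 (log2 fold change of -2.61 ± 0.33 (SE), adjusted p = 0.0080).

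The interferon-stimulated response element, a motif in the promoters of many genes induced by interferon, was searched as GAAANNGAAA on both strands and was in 3.44% of all windows, in 17 of the 38 windows of the tested members, and in 5 of the 14 windows of the 12 matched members that were higher. The stretches shown carry the element in capitals in genes that rose. In Isg15 and Oas1a overlapping copies form a longer run.
Isg15 (chr4:156200845-156200926, minus strand): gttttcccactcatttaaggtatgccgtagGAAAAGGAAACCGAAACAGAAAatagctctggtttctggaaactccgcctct
Oas3 (chr5:120777695-120777764, minus strand): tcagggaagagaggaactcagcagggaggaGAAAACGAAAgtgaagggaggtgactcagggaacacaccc
Oas1a (chr5:120907526-120907575, minus strand): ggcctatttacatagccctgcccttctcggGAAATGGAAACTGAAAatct
The first copy began 78 bases before the start in Isg15, 75 in Oas3 and 20 in Oas1a. Oas1a had values of 165, 137 and 213 with DMSO and 227, 277 and 330.3 with Yoda1 (log2 fold change of 0.70 ± 0.13 (SE), adjusted p = 0.022). Oas3 had values of 29.9, 6.73 and 16.2 with DMSO and 55.5, 48.6 and 125 with Yoda1 (log2 fold change of 2.14 ± 0.42 (SE), adjusted p = 0.024), and preparation 3 rose the most in value.

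Cytokines linked to the inflammatory CAF state did not move together. Of 26 tested genes of this group, 4 were higher (15.4%, against 8.53% of all genes tested) and 8 were lower (30.8%, against 9.16%). Il11, an IL-6 family cytokine, had values of 657, 1031 and 1650.3 with DMSO and 1136, 1862 and 2963 with Yoda1. It rose in each preparation by a similar ratio although its level differed between preparations (log2 fold change of 0.83 ± 0.05 (SE), adjusted p = 0.0018), so that the treatments overlapped. Il6 had values of 843, 804 and 1082 with DMSO and 562, 786 and 1299.7 with Yoda1 and did not pass the test (log2 fold change of -0.12 ± 0.16 (SE), adjusted p = 0.63). Ccl2, a monocyte chemokine, had values of 1589, 2425 and 2190.3 with DMSO and 567, 695 and 1453 with Yoda1 and was lower (log2 fold change of -1.29 ± 0.22 (SE), adjusted p = 0.016). Il1r1, the receptor for IL-1, was lower (-0.82 ± 0.11, adjusted p = 0.0096), as was the hyaluronan synthase Has2 (-0.51 ± 0.04). Fap, a CAF surface protease, had values of 165, 142 and 176 with DMSO and 311, 272 and 211 with Yoda1 and was higher (log2 fold change of 0.70 ± 0.16 (SE), adjusted p = 0.035). Mme, the peptidase CD10, had values of 377, 379 and 372 with DMSO and 167, 203 and 349 with Yoda1 and did not pass the test (log2 fold change of -0.72 ± 0.21 (SE), adjusted p = 0.064), with preparation 3 nearly the same in both treatments. C5ar2 was not analysed here. Of 43 genes of IL-6 family receptors and JAK/STAT3 signaling, 5 were higher (11.6%) and 6 lower (14.0%), with Il6st, the shared receptor subunit, lower (-0.45 ± 0.06). These shares are near the 8.53% and 9.16% of all genes, and the counts were 2 and 1 without preparation 2 and 12 and 12 without preparation 3. Of 23 NF-κB genes, 2 were higher (8.70%) and 1 lower (4.35%), with 0 called without preparation 2 and 5 higher and 9 lower without preparation 3. Of 8 tested MHC class II genes and other markers of antigen-presenting CAFs, H2-DMb1 was higher (0.56 ± 0.12) and Saa3, a serum amyloid A gene, lower (-0.55 ± 0.13). Without preparation 2, 2 inflammatory CAF genes were higher and 2 lower.

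Of 31 tested genes of chemokines and their receptors, 6 were higher and 6 lower. Cxcl3, a neutrophil chemokine, had values of 3.74, 4.49 and 3.03 with DMSO and 15.1, 29.6 and 139 with Yoda1 (log2 fold change of 3.12 ± 0.66 (SE)) and passed the filter on low values only through its Yoda1 libraries. Ccl5 had values of 13.7, 6.73 and 3.03 with DMSO and 60.2, 60.9 and 41.7 with Yoda1 (log2 fold change of 2.82 ± 0.33 (SE), adjusted p = 0.0065). Both had low values with DMSO, and with a pseudocount of 10 in place of 1 their log2 fold changes were 1.94 and 1.88. Ccl6 was higher in every preparation by nearly the same ratio, with log2 ratios of 1.02, 1.00 and 1.01. Cx3cl1 (-1.02 ± 0.09) and the receptor gene Cxcr6 (-1.81 ± 0.22) were lower, as was Cxcl12 (-0.33 ± 0.05). Macrophage markers, whose cells express several of these genes, summed to 3263 to 3496 with DMSO and 2880 to 4381 with Yoda1. Of 10 tested, C1qa (-0.96 ± 0.14) and C1qb (-0.94 ± 0.17) were lower and 0 were higher. A positive log2 ratio was found for 2, 4 and 7 of the 10 in preparations 1, 2 and 3. The median log2 ratio of the chemokine list was 0.17, 0.04 and 0.60. The part of macrophages in the chemokine values was not tested. Without preparation 2, 2 chemokine genes were higher and 2 lower.

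Among genes that respond to calcium, 3 of 14 calcineurin and NFAT genes were higher (21.4%, against 8.53% of all genes tested) and 2 were lower (14.3%, against 9.16%). All of the Rcan genes, which encode calcineurin regulators, were higher. Rcan2 had values of 379, 316 and 219 with DMSO and 732, 694 and 499.5 with Yoda1 (log2 fold change of 1.09 ± 0.08 (SE), adjusted p = 0.0025). Rcan1, a gene induced by NFAT, had values of 764, 894 and 1237 with DMSO and 1146, 1463 and 1985 with Yoda1 (log2 fold change of 0.66 ± 0.06 (SE), adjusted p = 0.0031), and Rcan3 rose by less (0.37 ± 0.06). Akap5, a scaffold that holds calcineurin, was lower (-1.13 ± 0.09). Of 28 calcium pump, release and entry genes, 3 were higher (10.7%, against 8.53% of all genes tested) and 5 lower (17.9%, against 9.16%). The plasma membrane calcium pumps moved apart. Atp2b4 had values of 3282, 4089.8 and 3292 with DMSO and 1423, 1461 and 1228 with Yoda1 (log2 fold change of -1.37 ± 0.07 (SE), adjusted p = 0.0014), whereas Atp2b1 was higher (0.45 ± 0.05). Itpr2, an intracellular release channel, was higher (0.41 ± 0.05), and Slc24a3, an exchanger, was lower (-0.98 ± 0.14). Without preparation 2, 2 NFAT genes were higher and 1 lower, and 0 of the calcium genes were higher and 2 lower.

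Of 29 immediate early and AP-1 genes, 11 were higher (37.9%, against 8.53% of all genes tested) and 3 lower (10.3%, against 9.16%). Nr4a1, an orphan nuclear receptor, had values of 302, 270.3 and 255 with DMSO and 649, 1029 and 681 with Yoda1 (log2 fold change of 1.48 ± 0.16 (SE), adjusted p = 0.0051). Klf2, a transcription factor induced by flow in endothelium, had values of 334, 289 and 255 with DMSO and 601, 622 and 592 with Yoda1 (log2 fold change of 1.05 ± 0.09 (SE), adjusted p = 0.0036), and its relative Klf4 was higher as well (0.90 ± 0.08). The AP-1 subunits Fosl1 (0.62 ± 0.07) and Fosl2 (0.47 ± 0.05) were higher while Fos was lower (-0.42 ± 0.10, adjusted p = 0.035). Atf3 did not pass the test (log2 fold change of -0.08 ± 0.11 (SE), adjusted p = 0.65). The count of higher genes was 4 without preparation 2 and 11 without preparation 3.

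Of 24 prostaglandin genes tested, 6 were higher (25%, against 8.53% of all genes tested), 2 were lower (8.33%, against 9.16%) and 16 did not pass the test. Ptgir, the prostacyclin receptor, had values of 109.7, 83.01 and 69.6 with DMSO and 284, 267 and 331 with Yoda1 (log2 fold change of 1.76 ± 0.18 (SE), adjusted p = 0.0048). Slco2a1, a prostaglandin importer, had values of 6104, 4486 and 2156 with DMSO and 10926, 8691 and 5969 with Yoda1 (log2 fold change of 1.09 ± 0.12 (SE), adjusted p = 0.0059), and the exporter gene Abcc4 was higher too (0.95 ± 0.11). Ptgs1 (cyclooxygenase 1) was higher (0.62 ± 0.07, adjusted p = 0.0050), and Ptgs2 (cyclooxygenase 2) had values of 24531, 27219.7 and 34543 with DMSO and 26267, 36192 and 50378 with Yoda1 and did not pass the test (log2 fold change of 0.35 ± 0.09 (SE), adjusted p = 0.052). In lipid metabolism, 11 of 31 genes were higher (35.5%, against 8.53% of all genes tested) and 2 lower (6.45%, against 9.16%). Cd36, a fatty acid transporter, had values of 288, 324 and 301 with DMSO and 546, 681 and 876 with Yoda1 (log2 fold change of 1.18 ± 0.13 (SE), adjusted p = 0.0057), and the desaturase Scd1 (0.55 ± 0.07) and the lipid droplet protein gene Plin2 (0.50 ± 0.08) were higher. Fabp4 had values of 212, 103 and 105 with DMSO and 379, 289.7 and 329.5 with Yoda1 (log2 fold change of 1.32 ± 0.17 (SE), adjusted p = 0.0084). It was also the single adipocyte marker listed, out of 6. Mgll, which breaks down monoacylglycerol and also 2-arachidonoylglycerol, was lower (-1.45 ± 0.18). Without preparation 2, 4 prostaglandin genes and 1 lipid gene were higher.

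Vitamin A genes did not move as a group, with 3 of 18 higher (16.7%, against 8.53% of all genes tested) and 4 lower (22.2%, against 9.16%). Aldh1a3, which makes retinoic acid, had values of 426, 529 and 769 with DMSO and 86.5, 76.5 and 132 with Yoda1 (log2 fold change of -2.53 ± 0.12 (SE), adjusted p = 0.0014). Its relative Aldh1a2 (-0.92 ± 0.12) and the retinol importer Stra6 (-0.89 ± 0.10) were also lower. Pparg, a nuclear receptor of quiescent stellate cells, did not pass the test (log2 fold change of 0.51 ± 0.14 (SE), adjusted p = 0.057). Of 19 genes of stellate cell and fibroblast identity, 7 were lower and 2 higher, with Vim (vimentin) at 99235, 102082 and 87569 with DMSO and 63974, 59520.0 and 54463 with Yoda1 (log2 fold change of -0.70 ± 0.07 (SE), adjusted p = 0.0040) and Cd34 lower (-0.74 ± 0.11). Without preparation 2, 2 vitamin A genes and 0 identity genes were lower.

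Of 39 lysosomal and autophagy genes tested, 18 were higher, none by more than 2-fold, 0 were lower and 21 did not pass the test. Ctsl, a lysosomal protease, had values of 10032, 11430.4 and 15269 with DMSO and 16414, 18505 and 23383 with Yoda1 (log2 fold change of 0.67 ± 0.05 (SE), adjusted p = 0.0024). Gaa, which degrades glycogen in lysosomes, had values of 3227, 3509.9 and 3749.8 with DMSO and 4887, 5284 and 6433 with Yoda1 (log2 fold change of 0.66 ± 0.06 (SE), adjusted p = 0.0031). Ctsb had values of 15309, 15936 and 15349 with DMSO and 21319, 21640.0 and 21613 with Yoda1 (log2 fold change of 0.47 ± 0.05 (SE), adjusted p = 0.0044). In each gene the lowest Yoda1 library exceeded the highest DMSO library. Ctsa was higher (0.62 ± 0.05), and Ctsd (0.43 ± 0.12, adjusted p = 0.066) and Lamp1 (0.24 ± 0.06, adjusted p = 0.051) did not pass. The median log2 ratio was 0.20, 0.17 and 0.29 in the 3 preparations. Without preparation 2, 4 passed, and without preparation 3, 24 were higher and 1 lower.

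Stress and metabolic genes differed between preparations. Of 40 ATF4 and amino acid response genes, 37 had a positive log2 ratio in preparation 1, 34 in preparation 2 and 7 in preparation 3, and the median ratio was 0.31, 0.22 and -0.34. Over the 3 preparations 6 were higher (15%, against 8.53% of all genes tested) and 0 lower, and without preparation 3, 28 were higher and 1 lower. Ddit4, an inhibitor of mTORC1 signaling, had values of 3099, 4282 and 5659 with DMSO and 6513, 6941 and 7849.7 with Yoda1 and was higher in each preparation (log2 fold change of 0.75 ± 0.11 (SE), adjusted p = 0.011). Asns, asparagine synthetase, had values of 7854, 8218 and 9738 with DMSO and 10136, 9929 and 7099 with Yoda1 (log2 fold change of 0.06 ± 0.16 (SE), adjusted p = 0.82), and Trib3 had values of 1833, 2500.3 and 3069.5 with DMSO and 3398, 3929.5 and 2517 with Yoda1 (log2 fold change of 0.42 ± 0.22 (SE), adjusted p = 0.23). Both were higher with Yoda1 in preparations 1 and 2 and lower in preparation 3. Of 33 glycolysis and hypoxia genes, 31, 29 and 16 were positive in preparations 1, 2 and 3, with medians of 0.27, 0.29 and -0.04, and 9 were higher and 0 lower in all. Aldoc, an aldolase, rose in all 3 preparations (1.41 ± 0.14), as did Ankrd37 (1.28 ± 0.23), the pH-regulating Car9 (0.63 ± 0.11) and the glucose transporter Slc2a1 (0.46 ± 0.09). Without preparation 3, 22 were higher and 1 lower. Of 31 cholesterol genes, 27, 22 and 14 were positive, and 4 were higher (12.9%, against 8.53% of all genes tested) and 0 lower. Of them 17 were higher and 2 lower without preparation 3, and 2 were higher and 2 lower without preparation 1. The counts of epithelial, acinar and islet markers higher with Yoda1, given above, were also larger in preparation 3 than in preparation 1, and whether these differences are linked was not tested.

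**Figure D4:**
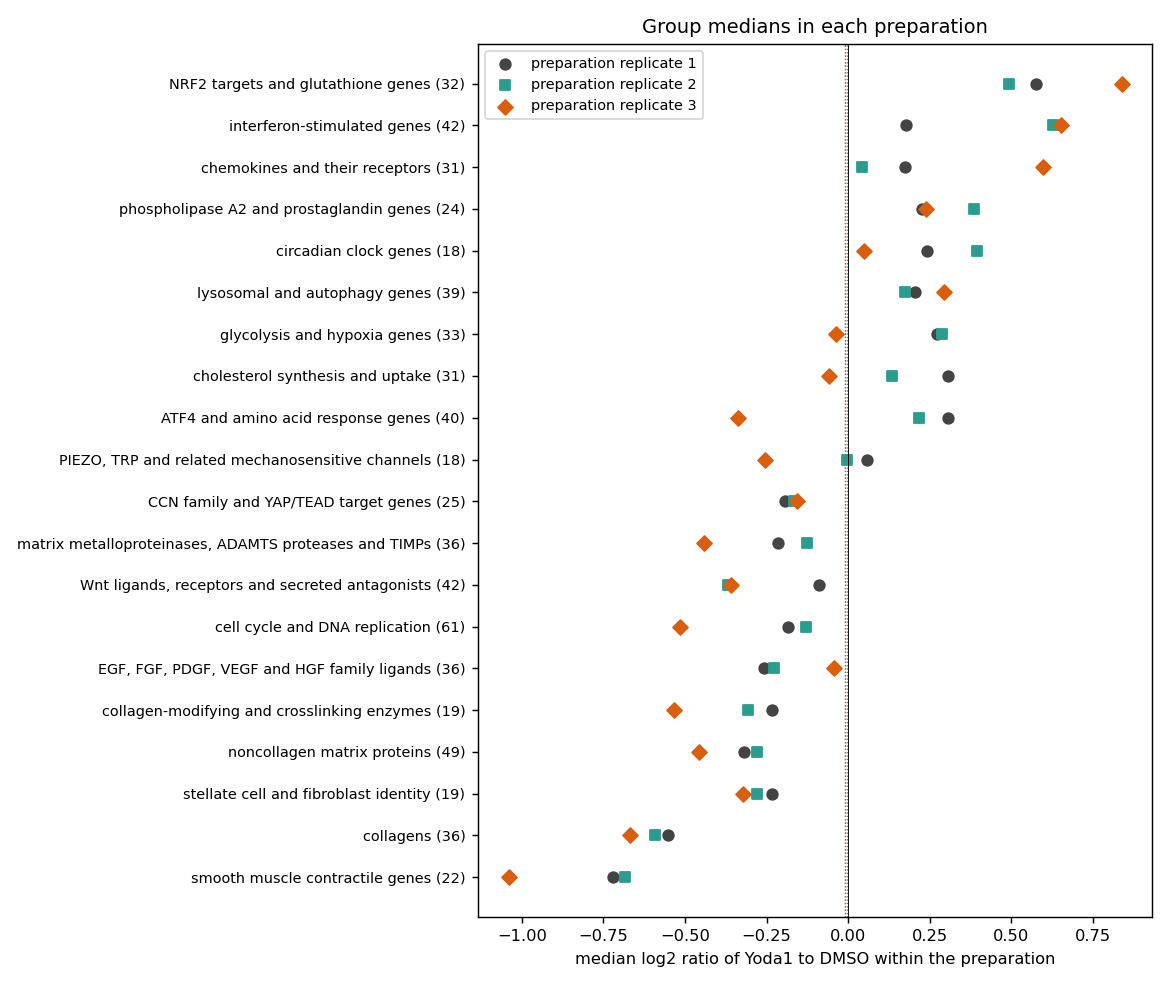
Median log2 ratio of Yoda1 to DMSO within each preparation (horizontal axis) for functional lists with a median log2 fold change beyond 0.18 in either direction, and for the ATF4, cholesterol and mechanosensitive channel lists, with the number of tested genes in parentheses and dotted lines at the medians over all genes. Contractile, collagen, NRF2 and lysosome medians have the same sign in all 3 preparations, and the ATF4 median is 0.31, 0.22 and -0.34.

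Of 44 endoplasmic reticulum genes, 8 were higher (18.2%, against 8.53% of all genes tested) and 5 lower (11.4%, against 9.16%). The counts were 3 and 0 without preparation 2 and 8 and 14 without preparation 3. Derl3, which helps export misfolded proteins from the reticulum, had values of 2.49, 4.49 and 11.1 with DMSO and 55.5, 51.8 and 89.00 with Yoda1 (log2 fold change of 3.39 ± 0.30 (SE), adjusted p = 0.0035), and its log2 fold change was 2.24 with a pseudocount of 10 in place of 1. The other 43 genes lay between -0.49 and 0.83. Of 61 cell cycle genes tested, 11 were lower, 0 were higher and 50 did not pass the test, and the list median was -0.27. DESeq2 called 21 lower. Rrm1, a subunit of ribonucleotide reductase, had values of 14438, 13005 and 9764 with DMSO and 10993, 10127 and 6069 with Yoda1 (log2 fold change of -0.48 ± 0.07 (SE), adjusted p = 0.013), and Rrm2 was lower as well (-0.38 ± 0.06). Mki67, a proliferation marker, had values of 14891, 13773 and 10706 with DMSO and 12636, 12245 and 6048 with Yoda1 and did not pass the test (log2 fold change of -0.41 ± 0.13 (SE), adjusted p = 0.081). The median was -0.18, -0.13 and -0.51 in the 3 preparations, and 28 genes were lower and 1 higher without preparation 3 and 0 were called without preparation 2. Of 25 p53 targets and cell cycle inhibitors, 7 were lower (28%, against 9.16% of all genes tested) and 3 higher (12%, against 8.53%). Cdkn2b had values of 1171, 1246 and 1830.0 with DMSO and 701, 574 and 592 with Yoda1 (log2 fold change of -1.16 ± 0.16 (SE), adjusted p = 0.0095), its neighbor Cdkn2a was also lower (-1.18 ± 0.25), and Cdkn1a did not pass (log2 fold change of 0.16 ± 0.11 (SE), adjusted p = 0.34). Mitochondrial respiratory chain genes had 11 of 78 lower (14.1%) and 0 higher and proteasome genes had 5 of 37 lower (13.5%) and 1 higher, against 9.16% lower over all genes, and those with the smallest p that were lower had log2 fold changes between -0.29 and -0.20. DESeq2 called 4 respiratory chain and 0 proteasome genes lower, and edgeR and TMM scaling each left 2 proteasome genes lower. Without preparation 2, 0 of the p53, respiratory chain and proteasome genes were called, and without preparation 3, 32 respiratory chain and 22 proteasome genes were lower.

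The genes with the largest increases came from several functions. Prl2c3 (ENSMUSG00000056457, chromosome 13 from 12790816 to 12800079), a prolactin family member known as proliferin, had values of 4.99, 4.49 and 2.02 with DMSO and 112, 144 and 135 with Yoda1 (log2 fold change of 4.82 ± 0.30 (SE)). It passed the filter on low values only through its Yoda1 libraries, and with so few DMSO reads its log2 fold change depends on the pseudocount. It was 4.99 with a pseudocount of 0.5 and 3.34 with a pseudocount of 10. Prl2c2 had values of 41.1, 61.7 and 5.05 with DMSO and 226, 252 and 89.8 with Yoda1 (log2 fold change of 2.78 ± 0.37 (SE), adjusted p = 0.0087). Both are nearly identical to each other and to Prl2c5, so reads may be divided between them uncertainly, and Prl2c5 was too low to be tested. Tns4, a focal adhesion protein gene, had values of 66.1, 30.3 and 13.1 with DMSO and 202, 259 and 342 with Yoda1 (log2 fold change of 3.09 ± 0.52 (SE), adjusted p = 0.016). Avil (advillin), an actin-regulating protein, had values of 27.4, 78.5 and 150.4 with DMSO and 559.7, 649 and 327 with Yoda1 (log2 fold change of 2.82 ± 0.55 (SE), adjusted p = 0.024), and preparation 3 rose least. Csn3, a milk casein gene, had values of 8.73, 17.9 and 18.2 with DMSO and 113, 92.99 and 107 with Yoda1 (log2 fold change of 2.79 ± 0.29 (SE), adjusted p = 0.0048). Krt23, a keratin gene, rose by nearly the same ratio in each preparation, with log2 ratios of 2.43, 2.35 and 2.42. Akr1c18 (2.81 ± 0.51), Clic5 (2.56 ± 0.29), Anxa10 (2.54 ± 0.32) and B4galnt2 (2.49 ± 0.33) complete the 15 largest with Cxcl3, Mmp13, Derl3, Itgb7 and Fgfbp1. With a pseudocount of 10, Akr1c18 was at 2.11, Clic5 at 2.07, Anxa10 at 2.20 and B4galnt2 at 1.84.

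Among the 15 largest decreases beyond those already described, Slc1a6, a glutamate transporter of neurons, had values of 330.4, 237 and 136 with DMSO and 67.7, 30.4 and 17.6 with Yoda1 (log2 fold change of -2.69 ± 0.18 (SE), adjusted p = 0.0021). Dgkk, a diacylglycerol kinase gene, had values of 149.6, 158 and 198 with DMSO and 29.2, 27.2 and 22.5 with Yoda1 (log2 fold change of -2.63 ± 0.20 (SE), adjusted p = 0.0025). Cntn2, an adhesion molecule of axons, had values of 746, 505 and 693 with DMSO and 127, 106 and 164 with Yoda1 (log2 fold change of -2.28 ± 0.11 (SE), adjusted p = 0.0014). Krt14, a basal keratin, had values of 161, 255 and 248 with DMSO and 45.2, 47.7 and 53.7 with Yoda1 (log2 fold change of -2.13 ± 0.16 (SE), adjusted p = 0.0025), in contrast to Krt23. Hal, which degrades histidine (-2.44 ± 0.22), Bhlha9 (-2.52 ± 0.35) and AI593442 (-2.51 ± 0.25) had low values in all libraries. With a pseudocount of 10 in place of 1, their log2 fold changes were -1.78, -1.77 and -1.91. The rule for the largest changes admitted only genes whose treatments did not overlap. Of 61 semaphorin, ephrin, slit and netrin genes, 10 were higher (16.4%, against 8.53% of all genes tested) and 15 lower (24.6%, against 9.16%). The semaphorins Sema7a (1.04 ± 0.09) and Sema4b (1.03 ± 0.06) were higher, and the guidance ligand Slit3 (-0.62 ± 0.06) and the receptor Epha1 (-0.68 ± 0.07) were lower. Without preparation 2, 3 of these 61 genes were higher and 5 lower.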

How the data were processed

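RNA-Seq of mouse PSCs was analyzed from the signal deposited by the authors for 16481 genes, which proved to be counts scaled by a size factor. All 98886 deposited values were whole multiples of 1 step per library (tolerance 0.01), so reads could be recovered. The submitters' processing notes over the whole series, livers included, name HISAT2 2.0.5 and Trim Galore. Which of them applied to the PSC libraries was not separated here. The counting tool was not given in the sources used here. The authors' own fold changes, test scores and p-values were not used. Coordinates came from the deposited liver counts, of which 99.0% lay within 1 kb of GENCODE M21 (GRCm38), and 7 further columns of that file matched no sample.

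Genes reaching 10 in 3 or more libraries were tested on log2(value + 1) with limma 3.58.1 in R 4.3.3, with a variance trend, the preparation as a block and Benjamini-Hochberg adjustment over all genes tested. This scale understates changes of low genes. All DMSO values of 48 tested genes were under 10, and all Yoda1 values of 27 others, so these passed only through 1 treatment. Genes were called at an adjusted p under 0.05. The labels' replicate numbers name the cell preparations, and deviations from the treatment means correlated by 0.43, 0.26 and 0.53 within them. Whether preparations came from separate mice was not given, so p-values cover the spread between these samples. In simulated data of 15014 genes for Yoda1 against DMSO, 200 genes had been changed before the filter, far fewer than were called in the data. By limma, 73.4% of 2-fold and 100% of 4-fold changes were recovered. Of 203 calls, 27 were false (13.3%), more than the 0.05 set for calls.

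Named genes were the 15 largest per direction past 2-fold without overlap and with a mean of at least 1 CPM, up to 4 members with the smallest p per list, and genes the study names. Others were chosen after their values were seen. Some genes that met the rule are not reported here. The members and lists were chosen with earlier results of these data known. Alternatives were no block, pseudocounts of 0.5 and 10, no filter, no trend, TMM scaling, edgeR 4.0.16 and DESeq2 1.42.0 on recovered reads, and each preparation left out. Promoters and plots used Python 3.11.15, pandas 2.3.3 and matplotlib 3.10.9.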

Additional observations from a re-analysis of the deposited data

How the results depend on the processing

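The number of called genes depended on the block, the variance trend and the preparations. Without the replicate block, 334 genes were higher and 385 lower, of which 112 and 124 by more than 2-fold. Without the variance trend, the counts were 319 and 286, and 112 and 117. With each preparation left out in turn, the number of higher genes lay between 173 and 2190 and of lower genes between 203 and 2506, and beyond 2-fold between 81 and 263 and between 96 and 213, always lowest without preparation 2. With edgeR, DESeq2, TMM scaling, no filter and the other pseudocounts, each of these 4 counts over all genes stayed within 1.5 times. Counts of 3 or more in a list moved further in 4 lists. Lower cell cycle genes went from 11 to 21, lower respiratory chain genes from 11 to 4 and higher Notch genes from 3 to 1 with DESeq2, and lower proteasome genes went from 5 to 0 with DESeq2 and to 2 with edgeR and with TMM scaling. Of the 54 list counts of 3 or more, 49 fell by more than 1.5 times without the block, 52 without the variance trend and 50 without preparation 2, and 21 rose by more than 1.5 times without preparation 3. DESeq2 gave the lowest counts of these for all called genes, with 995 higher and 1069 lower. The genes called without the block were all among those called with it. Of 295 named genes tested, 232 were called, and all of these kept their sign in every alternative that tested them. The alternatives used the same libraries, and every called gene had 1 direction in all 3 preparations. Keeping the sign was therefore largely fixed in advance. The call was lost for 114 without the block, 127 without the trend and 111 without preparation 2. The cause of the lower counts without preparation 2 was not tested. Intervals cover these 3 preparations only, and errors were large for some genes with low values and for some whose preparations differed.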

Other observations

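Several genes outside the lists were chosen after their values were seen. Lgals3 (galectin 3), a lectin secreted by macrophages and fibroblasts, had values of 1026, 1102 and 922 with DMSO and 3666, 4315 and 6084 with Yoda1 (log2 fold change of 2.18 ± 0.17 (SE), adjusted p = 0.0027 by limma). Atp6v0d2, a subunit of the vacuolar proton pump, had values of 11.2, 11.2 and 13.1 with DMSO and 48.9, 48.6 and 78.6 with Yoda1 (log2 fold change of 2.18 ± 0.23 (SE), adjusted p = 0.0048 by limma). Pdk4, a kinase that inhibits pyruvate dehydrogenase, had values of 106, 101 and 144 with DMSO and 201, 221 and 382 with Yoda1 (log2 fold change of 1.15 ± 0.13 (SE), adjusted p = 0.0060 by limma). Treatments did not overlap for any of these genes.

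Genes of the aryl hydrocarbon receptor were read because Cyp1a1, its best-known target, had values of 0, 4.49 and 1.01 with DMSO and 47.97, 13.99 and 25.7 with Yoda1. Its values were low and differed between preparations, and it passed the filter on low values only through its Yoda1 libraries, so no fold change is given. Ahrr (1.55 ± 0.45, adjusted p = 0.067), Tiparp (0.23 ± 0.09, adjusted p = 0.14) and Cyp1b1 (-0.24 ± 0.17, adjusted p = 0.38), further targets, did not pass the test. The metallothionein genes Mt1 and Mt2 bind zinc. Mt1 had values of 1294, 1778 and 1620.0 with DMSO and 2478, 2505 and 8405 with Yoda1 (log2 fold change of 1.27 ± 0.34 (SE), adjusted p = 0.053), and Mt2 had values of 1022, 1298 and 996 with DMSO and 1783, 1862 and 6955 with Yoda1 (log2 fold change of 1.37 ± 0.42 (SE), adjusted p = 0.077). Neither passed the test over the 3 preparations, and the ratio in preparation 3 was the largest for both.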
